A study of Mus musculus with 6 samples.

Results

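The ABC efflux transporters of the liver are membrane pumps that use ATP to carry bile constituents, sterols, conjugated metabolites and drugs out of the hepatocyte. Most of those described here sit in the canalicular membrane and secrete into bile, while Abcc3 and Abcc4 sit in the basolateral membrane and return their substrates to blood. The genes described are Abcb1a, Abcb1b, Abcb4, Abcb11, Abcc2, Abcc3, Abcc4, Abcg2, Abcg5 and Abcg8, chosen by name as the efflux pumps of this family known from liver. All 10 were found among the 48432 genes of the deposited table, and all 10 passed the filter on low counts that left 16533 genes for testing.

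The series measured liver RNA of 10-week-old mice in 2 groups of 3 libraries. The Li-KO group is a liver-specific knockout of Klf15, a zinc finger transcription factor of the Kruppel-like family. The Ctl group carried the Albumin-Cre transgene, in which the albumin promoter drives Cre recombinase in hepatocytes. The deposited table calls its conditions KO and WT, and WT was taken to be Ctl as the only group that is not the knockout. The labels do not name the transgene that removes Klf15 in Li-KO mice, the exon removed, the sex, the feeding state or the hour of collection, and they do not tie each library to its own animal. The p-values therefore cover only variation among libraries, which may be technical.

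Library totals were 30716766 to 43375775 counts in Li-KO and 35711578 to 42745995 counts in Ctl. Klf15 itself was at 54.3, 41.6 and 51.8 CPM (counts scaled to library size with TMM factors) in Li-KO replicates 0, 1 and 2, against 345, 174 and 196 CPM in Ctl replicates 0, 1 and 2, so the groups did not overlap. Hepatocyte markers were abundant in every library, with 5 markers summing to 18322 to 22199 CPM in Li-KO and 14967 to 23777 CPM in Ctl. The hepatocyte markers Alb, Cps1 and Serpina1c were skipped in the table and are listed at 0, which is no measurement. Summed markers of endothelium were 424 to 652 CPM in Li-KO and 553 to 591 CPM in Ctl, and those of Kupffer cells 254 to 360.0 CPM in Li-KO and 271 to 389 CPM in Ctl. Markers of stellate cells and fibroblasts summed to 551 to 685 CPM in Li-KO and 562 to 589.8 CPM in Ctl, those of lymphocytes to 16.4 to 32.7 CPM in Li-KO and 21.2 to 29.2 CPM in Ctl. In bulk liver, fewer cells of a type and less RNA per cell cannot be told apart.

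Of the 10 transporters, 2 were higher in Li-KO liver (Abcb1a and Abcg5), 1 was lower (Abcb1b) and 7 did not pass an adjusted p of 0.05 by the quasi-likelihood test of edgeR. Over all genes tested, 12.0% passed this threshold, 6.11% as higher and 5.90% as lower. The log2 fold change was above 0 for 8 of the 10, beside 8135 of 16533 genes tested. Its median was 0.31, against -0.01 over all genes. Among the 8, those of Abcb4 (0.04) and Abcg2 (0.09) changed sign in fits that left out 1 library. The 3 libraries of the 2 groups did not overlap for 5 of the 10, and the same held for 35.2% of all genes tested. Every log2 fold change below is the Li-KO value minus the Ctl value, given ± SE, and every adjusted p comes from edgeR with Benjamini-Hochberg adjustment over all genes tested unless another tool is named.

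**Figure D1:**
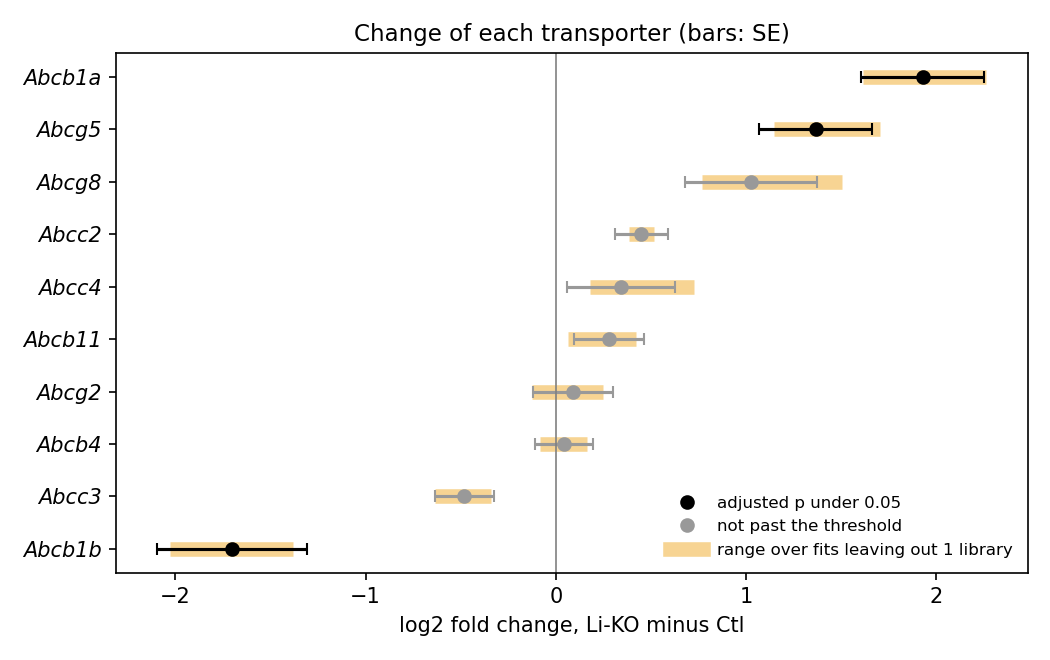
Log2 fold change of each transporter (x axis, Li-KO minus Ctl) with its SE as a bar, n = 3 libraries per group. Black points passed the threshold and grey ones did not; the yellow band spans the 6 fits that each left out 1 library, and it crosses 0 for Abcg2 and Abcb4.

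Abcg5 and Abcg8 encode the subunits of the canalicular sterol exporter, a heterodimer that secretes cholesterol and plant sterols into bile. Abcg5 (ENSMUSG00000040505.13, chromosome 17, 84658234 to 84683011, minus strand, mm10) was at 453, 312 and 279 CPM in Li-KO replicates 0, 1 and 2, against 192, 85.7 and 127 CPM in Ctl replicates 0, 1 and 2. Each Li-KO library was above each Ctl library, and the fold change was 2.58, with a log2 value of 1.37 ± 0.30 and an adjusted p of 0.0257. The group means were 348 ± 92.5 CPM in Li-KO and 135 ± 53.6 CPM in Ctl (SD, n = 3 each).

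Abcg8 (ENSMUSG00000024254.15, chromosome 17, 84676302 to 84700333, plus strand, mm10) was at 374, 258 and 196 CPM in Li-KO replicates 0, 1 and 2, against 212, 89.3 and 104 CPM in Ctl replicates 0, 1 and 2. Ctl replicate 0 lay above Li-KO replicate 2, so the groups overlapped. Its log2 fold change was 1.03 ± 0.35 and its adjusted p 0.0891, which did not pass. Both half-transporters were highest in replicate 0 of each group. Without Ctl replicate 0 the adjusted p was 0.0124 for Abcg5 and 0.0182 for Abcg8. The Abcg5 call ended without Ctl replicate 1 (adjusted p = 0.0749), Ctl replicate 2 (0.0939), Li-KO replicate 0 (0.0524) or Li-KO replicate 1 (0.0702).

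The pair is transcribed head to head from the Abcg8 start site that lies outside Abcg5. The interval between that site and the Abcg5 start is shown. In RefSeq (GRCm38.p6) Abcg5 starts at 84683011 on the minus strand, and this Abcg8 start is at 84683121 on the plus strand. The 109 bases between them lie at chr17:84683012-84683120. Read on the plus strand, in lower case, with the match to GATAAG on the minus strand in capitals, the interval is:
Abcg5-Abcg8 interval: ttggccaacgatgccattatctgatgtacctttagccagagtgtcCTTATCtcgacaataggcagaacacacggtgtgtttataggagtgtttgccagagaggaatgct
GATAAG, a motif of GATA factors, was searched on both strands and is in 7.4% of 32851 RefSeq promoter windows (250 bases before to 50 after a start). CACCC, the box bound by Kruppel-like factors, GGGCGG and AGGTCA, a nuclear receptor half-site, are in 57.5%, 35.7% and 16.3% of such windows, and have 0 matches in this interval. The windows are longer than the 109 bases of the interval, so these shares are not for a stretch of like length. A match or its absence is a property of these letters alone.

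RefSeq and GENCODE release M21 also give Abcg8 a start inside Abcg5, at 84676302. In GENCODE M21 the 2 genes share 82 exonic bases on opposite strands (3.02% of Abcg5 and 2.19% of Abcg8). The kit keeps the strand, but no source used here states the strand setting of the counting. Per length, in FPKM, the ratio of Abcg5 to Abcg8 was 1.78, 1.71 and 1.93 in Li-KO replicates 0, 1 and 2. In Ctl replicates 0, 1 and 2 it was 1.33, 1.46 and 1.82. These ratios overlapped between the groups, with means of 1.81 ± 0.11 in Li-KO and 1.54 ± 0.25 in Ctl (SD, n = 3 each).

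Abcb1a and Abcb1b encode the mouse forms of P-glycoprotein, a pump of broad specificity for lipophilic drugs, and moved in opposite directions. Abcb1a (ENSMUSG00000040584.8, chromosome 5, 8660077 to 8748575, plus strand, mm10) was at 20.9, 45.3 and 56.9 CPM in Li-KO replicates 0, 1 and 2, against 11.98, 10.6 and 9.82 CPM in Ctl replicates 0, 1 and 2. All Li-KO libraries were above all Ctl libraries, and Li-KO replicate 0 was the nearest to Ctl. The fold change was 3.80, with a log2 value of 1.93 ± 0.32 and an adjusted p of 0.0108. The call ended, narrowly, without Ctl replicate 1 (adjusted p = 0.0521) or Ctl replicate 2 (0.0516), at log2 fold changes of 1.93 and 1.86.

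Abcb1b (ENSMUSG00000028970.9, chromosome 5, 8798147 to 8866315, plus strand, mm10) was the scarcest of the 10. It had 57, 33 and 39 counts in Li-KO replicates 0, 1 and 2, against 174, 212 and 98 counts in Ctl replicates 0, 1 and 2, or 1.84, 1.06 and 0.948 CPM in Li-KO against 4.17, 5.71 and 2.60 CPM in Ctl. Each Li-KO value lay below each Ctl value, the level was 3.25-fold lower in Li-KO, the log2 fold change -1.70 ± 0.39 and the adjusted p 0.0304. The call ended without Li-KO replicate 1 (adjusted p = 0.104), Li-KO replicate 2 (0.0555), Ctl replicate 0 (0.0624) or Ctl replicate 1 (0.129).

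The ratio of Abcb1a to Abcb1b in FPKM was 9.90, 37.2 and 52.5 in Li-KO replicates 0, 1 and 2. In Ctl replicates 0, 1 and 2 it was 2.49, 1.60 and 3.30. Abcb1a was thus the more abundant of the pair per length in all 6 libraries, and the ratios did not overlap between the groups. That separation follows from the opposite moves of the single genes and is no separate result. With the counts of both genes added up as 1 feature, the pair was higher in Li-KO (log2 fold change 1.502 ± 0.31, adjusted p = 0.0205). That call ended without Li-KO replicate 1 (adjusted p = 0.0751), Ctl replicate 1 (0.0729) or Ctl replicate 2 (0.0835).

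The paralogs are neighbours, with 49571 bases between them, and no source used here states how fragments that match both were assigned. Their coding sequences in GENCODE M21, of 3828 bases each, were identical at 87.7% of aligned positions, with a longest identical run of 338 bases. Of all distinct runs of 50 bases in the transcripts, 17.6% for Abcb1a and 11.6% for Abcb1b occur in transcripts of another gene, so most of each transcript can be told apart by a fragment. The 60 coding bases at which the pair differ most are shown because fragments from there separate the paralogs; capitals mark the 25 differing bases, and positions count from the first base of the start codon, at 1913 to 1972 in Abcb1a and 1922 to 1981 in Abcb1b:
Abcb1a: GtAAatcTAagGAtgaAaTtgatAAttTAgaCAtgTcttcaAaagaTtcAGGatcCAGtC
Abcb1b: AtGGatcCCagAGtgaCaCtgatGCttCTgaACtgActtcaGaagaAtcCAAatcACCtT
Endothelial cells also carry P-glycoprotein. The 8 endothelial markers held 0 called genes, beside 12.0% of all genes tested, with a median log2 fold change of -0.16. The part of endothelial cells in the Abcb1a and Abcb1b results was not tested.

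**Figure D2:**
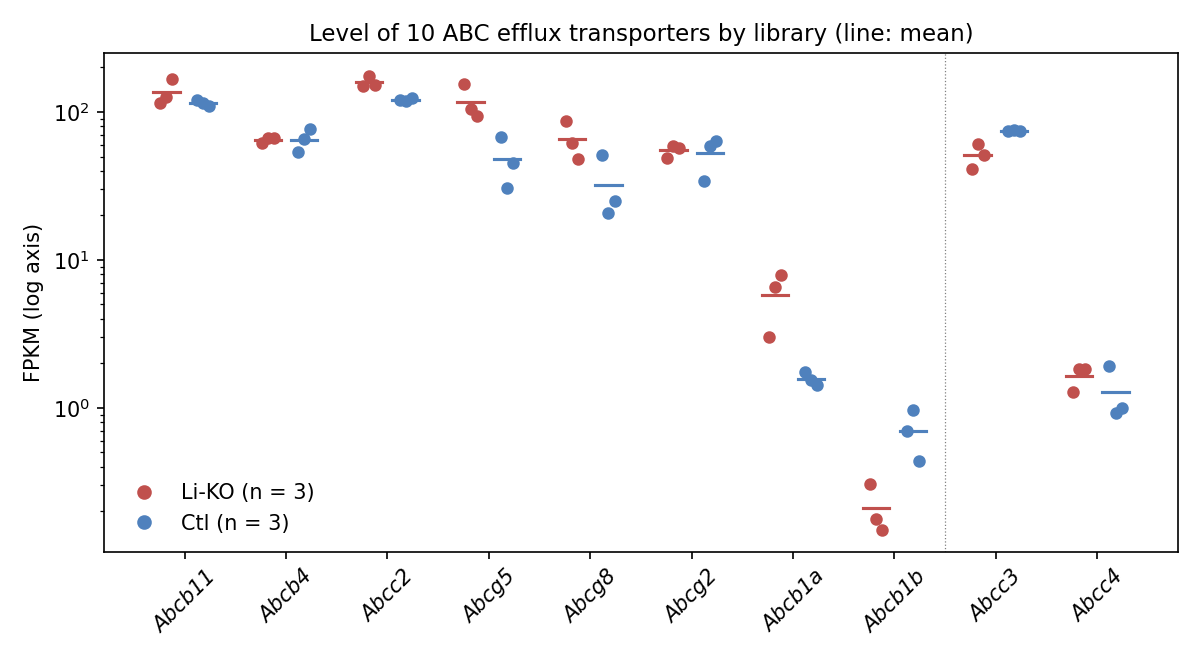
FPKM on a log axis (y) for each of the 10 transporters (x), 1 point per library, with Li-KO to the left of Ctl and a line at the mean of 3 libraries; genes right of the dotted line are basolateral. The Abcb1a points of Li-KO, at 3.03 to 7.88 FPKM, lie above those of Ctl at 1.43 to 1.73 FPKM, and the Abcb1b points lie the other way round.

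The RNA of Abcb11 and Abcb4, canalicular pumps for bile salts and phospholipid, did not pass the test. Abcb11 (chromosome 2, 69238282 to 69342616, minus strand, mm10), the bile salt export pump, was at 786, 868 and 1216 CPM in Li-KO replicates 0, 1 and 2, against 838, 783 and 745 CPM in Ctl replicates 0, 1 and 2. The groups overlapped, with Li-KO replicate 2 the highest, and the log2 fold change of 0.28 ± 0.18 did not pass (adjusted p = 0.353). Without Li-KO replicate 2 the log2 fold change was 0.06. Abcb4 (chromosome 5, 8893717 to 8959231, plus strand, mm10), which moves phosphatidylcholine into bile, was at 349.7, 375 and 391 CPM in Li-KO replicates 0, 1 and 2, against 296.5, 366 and 421 CPM in Ctl replicates 0, 1 and 2. The Li-KO values lay within the Ctl range (log2 fold change 0.04 ± 0.15, adjusted p = 0.886). Without Ctl replicate 0 its sign turned, to -0.08.

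Abcg2 (chromosome 6, 58584523 to 58695676, plus strand, mm10), an exporter of urate and sulfated conjugates, was at 145, 173 and 184 CPM in Li-KO replicates 0, 1 and 2, against 107, 174 and 191 CPM in Ctl replicates 0, 1 and 2. The Li-KO values again lay within the Ctl range (log2 fold change 0.09 ± 0.21, adjusted p = 0.821). Its sign turned without Ctl replicate 0, the lowest of the 6, to -0.13.

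Abcc2 and Abcc3 export the same broad class of glucuronide and glutathione conjugates across opposite membranes, Abcc2 into bile and Abcc3 into blood. Abcc2 (chromosome 19, 43782192 to 43840740, plus strand, mm10) was at 1656, 1928 and 1750.2 CPM in Li-KO replicates 0, 1 and 2, against 1311, 1267 and 1331 CPM in Ctl replicates 0, 1 and 2. Abcc3 (chromosome 11, 94343295 to 94392997, minus strand, mm10) was at 293, 426 and 346 CPM in Li-KO replicates 0, 1 and 2, against 493, 503 and 492 CPM in Ctl replicates 0, 1 and 2. For both genes the groups did not overlap, Abcc2 being above and Abcc3 below Ctl in every Li-KO library. Neither passed in edgeR, with log2 fold changes of 0.45 ± 0.14 (adjusted p = 0.0712) and -0.48 ± 0.16 (adjusted p = 0.0780). DESeq2 on the same counts called both, with adjusted p of 0.00461 and 0.0336.

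The FPKM ratio of Abcc2 to Abcc3 was 3.62, 2.89 and 2.99 in Li-KO replicates 0, 1 and 2, against 1.62, 1.57 and 1.67 in Ctl replicates 0, 1 and 2. All Li-KO ratios lay above all Ctl ratios, with means of 3.17 ± 0.40 in Li-KO and 1.62 ± 0.05 in Ctl (SD, n = 3 each). This separation follows from the values of the single genes, given above, and is no separate result. The ratio of Abcb11 to Abcb4, by contrast, overlapped between groups, at 1.85, 1.90 and 2.50 in Li-KO and 2.28, 1.74 and 1.44 in Ctl. Ratios between transporters were not tested, and those of Abcc2 to Abcc3 and Abcb11 to Abcb4 were not planned beforehand. Bile duct cells carry Abcc3 as well, and of 8 markers of those cells 1 passed the test, beside 12.0% of all genes tested. This was Sox9, at 2.82 ± 0.65 CPM in Li-KO and 14.7 ± 2.64 CPM in Ctl (log2 fold change -2.39 ± 0.24, adjusted p = 0.00153). The other 7 did not pass, and 5 of the 8 had a log2 fold change above 0, with a median of 0.47 over the list. Epcam was at 1.96 ± 0.22 CPM in Li-KO and 1.01 ± 0.16 CPM in Ctl, without overlap (log2 fold change 0.96 ± 0.32, adjusted p = 0.0850), and Krt19 had a log2 fold change of 0.77 ± 0.42 (adjusted p = 0.265). The list summed to 60.3 to 164 CPM in Li-KO and 45.6 to 78.1 CPM in Ctl, with 0 markers at 0 counts in all libraries. Most of the highest sum came from Spp1, at 144, 56.8 and 40.4 CPM in Li-KO replicates 0, 1 and 2, against 18.9, 31.9 and 42.8 CPM in Ctl replicates 0, 1 and 2 (adjusted p = 0.0920). The part of bile duct cells in the Abcc3 values was not tested.

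**Figure D3:**
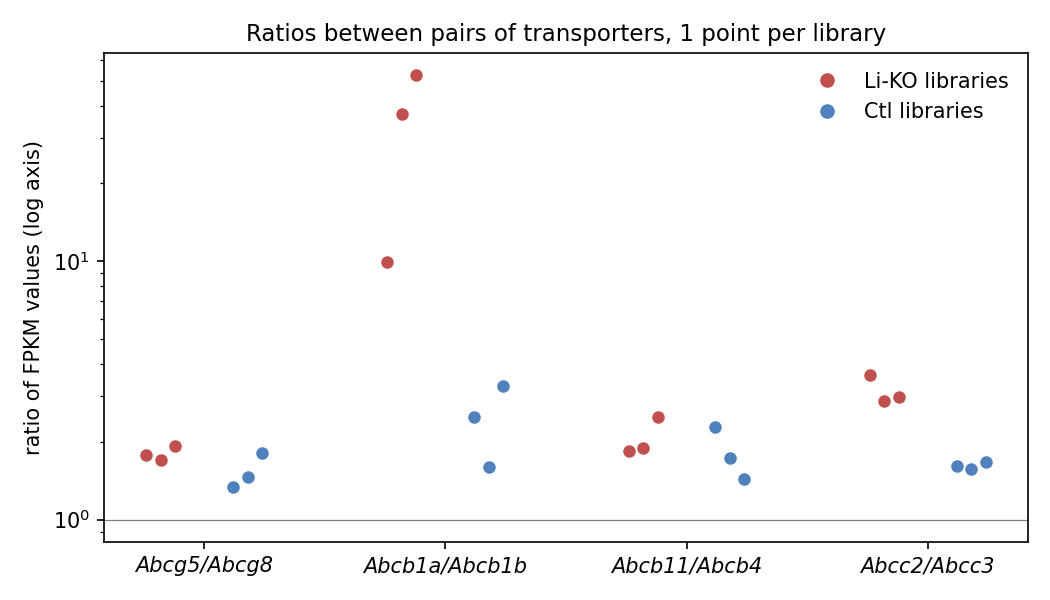
Ratio of FPKM values (y, log axis) for 4 pairs of transporters (x), 1 point per library, Li-KO in red to the left of Ctl in blue. The points of the groups are apart for Abcb1a/Abcb1b and Abcc2/Abcc3, which follows from the values of the single genes. They overlap for Abcg5/Abcg8 and Abcb11/Abcb4.

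Abcc4 (ENSMUSG00000032849.13, chromosome 14, 118482692 to 118706219, minus strand, mm10), a basolateral exporter of sulfated bile acids and cyclic nucleotides, was low. Its level was 10.1, 14.3 and 14.5 CPM in Li-KO replicates 0, 1 and 2, against 14.98, 7.40 and 8.25 CPM in Ctl replicates 0, 1 and 2. Ctl replicate 0 was the highest of all, so the groups overlapped, and the log2 fold change of 0.34 ± 0.28 did not pass (adjusted p = 0.463). Without Ctl replicate 0 it was 0.73 (adjusted p = 0.0875).

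The order of the transporters by level per length, in mean FPKM, differed between the groups. In Li-KO it was Abcc2 (159.7), Abcb11 (136), Abcg5 (118), Abcg8 (65.6), Abcb4 (65.0), Abcg2 (55.0), Abcc3 (51.2), Abcb1a (5.83), Abcc4 (1.64) and Abcb1b (0.211). In Ctl it was Abcc2 (121), Abcb11 (115), Abcc3 (74.6), Abcb4 (65.2), Abcg2 (52.6), Abcg5 (47.99), Abcg8 (32.3), Abcb1a (1.57), Abcc4 (1.28) and Abcb1b (0.697). Abcg5 thus ranked 3 in Li-KO and 6 in Ctl, and Abcc3 ranked 7 in Li-KO and 3 in Ctl. The ranges of neighbours in this order overlapped in Li-KO for Abcc2 and Abcb11, Abcb11 and Abcg5, Abcg8 and Abcb4, and Abcg2 and Abcc3. In Ctl they were apart only between Abcb11 and Abcc3 and between Abcg8 and Abcb1a.

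The FPKM values of the 10 transporters summed to 646 to 665 in Li-KO libraries and 488 to 528 in Ctl libraries. Abcg5 and Abcg8 made up 14.5% to 23.3% and 7.5% to 13.1% of that sum in Li-KO, against 6.25% to 12.9% and 4.28% to 9.69% in Ctl. Abcc3 made up 6.26% to 9.18% in Li-KO and 14.1% to 15.4% in Ctl. The share of Abcc2 overlapped between the groups, at 22.7% to 26.5% in Li-KO and 22.9% to 24.2% in Ctl.

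RefSeq promoter windows were matched for 9 of the 10 transporters, in 13 windows. CACCC was present in windows of Abcb1a (2 matches), Abcb1b, Abcb4, Abcb11, Abcc4 and Abcg2, and had 0 matches in those of Abcg5, Abcg8 and Abcc2, beside the 57.5% of all windows that hold it. That share counts windows, while Abcc4, Abcg2 and Abcg8 have several windows each. The Abcg2 window starting at 58596422 had 0 matches. The RefSeq start of Abcb1a lies 92986 bases before the GENCODE start of the gene, so its window may not be the start used in these livers.

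Of 43 further genes of the ABC family, 34 were tested, of which 4 rose and 1 fell, beside 6.11% higher and 5.90% lower over all genes tested. Their median log2 fold change was 0.16. Abca3, a lipid transporter best known from lung surfactant, rose to 245 ± 15.02 CPM in Li-KO, against 139 ± 9.90 CPM in Ctl (log2 fold change 0.81 ± 0.12, adjusted p = 0.00643), and kept its call in all 6 fits that left out a library. Abcb6, a porphyrin transporter, was at 151 ± 10.3 CPM in Li-KO and 104 ± 5.69 CPM in Ctl (adjusted p = 0.0216). Abcb8, of the mitochondrial inner membrane, was at 49.4 ± 11.04 CPM in Li-KO and 29.7 ± 1.98 CPM in Ctl (adjusted p = 0.0325), and Abca5 at 31.7 ± 5.03 CPM in Li-KO and 21.5 ± 2.05 CPM in Ctl (adjusted p = 0.0497). Abcc9, the regulatory subunit of a potassium channel, fell to 65.8 ± 5.26 CPM in Li-KO, against 93.4 ± 13.8 CPM in Ctl (adjusted p = 0.0469). The call of Abcb6 ended without Li-KO replicate 1, Ctl replicate 1 or Ctl replicate 2 (adjusted p up to 0.0939). The Abcb8 call held in 1 of 6 such fits, that lacking Li-KO replicate 2 (otherwise up to 0.117), and the Abca5 call in 1 of 6, that lacking Li-KO replicate 0 (otherwise up to 0.153). Abcc9 held in 0 of the 6, at 0.0670 to 0.151. Other settings ended calls as well: Abcc9 under RLE (0.05003), upper quartile (0.0530) and library total (0.0506) scaling and in limma on log2(FPKM + 0.1) and log2(FPKM + 1) (0.0885 and 0.0932). Abca5 was lost in the same FPKM fits (0.126 and 0.122), in limma-voom (0.0508) and with the genes skipped in the table kept (0.0501), and Abcb8 in limma on log2(FPKM + 1) (0.0514).

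Abca1 and Abcg1, cholesterol exporters that share the oxysterol receptor LXR as a regulator with Abcg5 and Abcg8, were picked for comparison after their values were seen. Abca1 was at 953 ± 132 CPM in Li-KO and 919 ± 78.2 CPM in Ctl (log2 fold change 0.05 ± 0.16, adjusted p = 0.860). Abcg1 was at 20.1 ± 3.82 CPM in Li-KO and 14.5 ± 2.37 CPM in Ctl (log2 fold change 0.47 ± 0.19, adjusted p = 0.135).

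**Figure D4:**
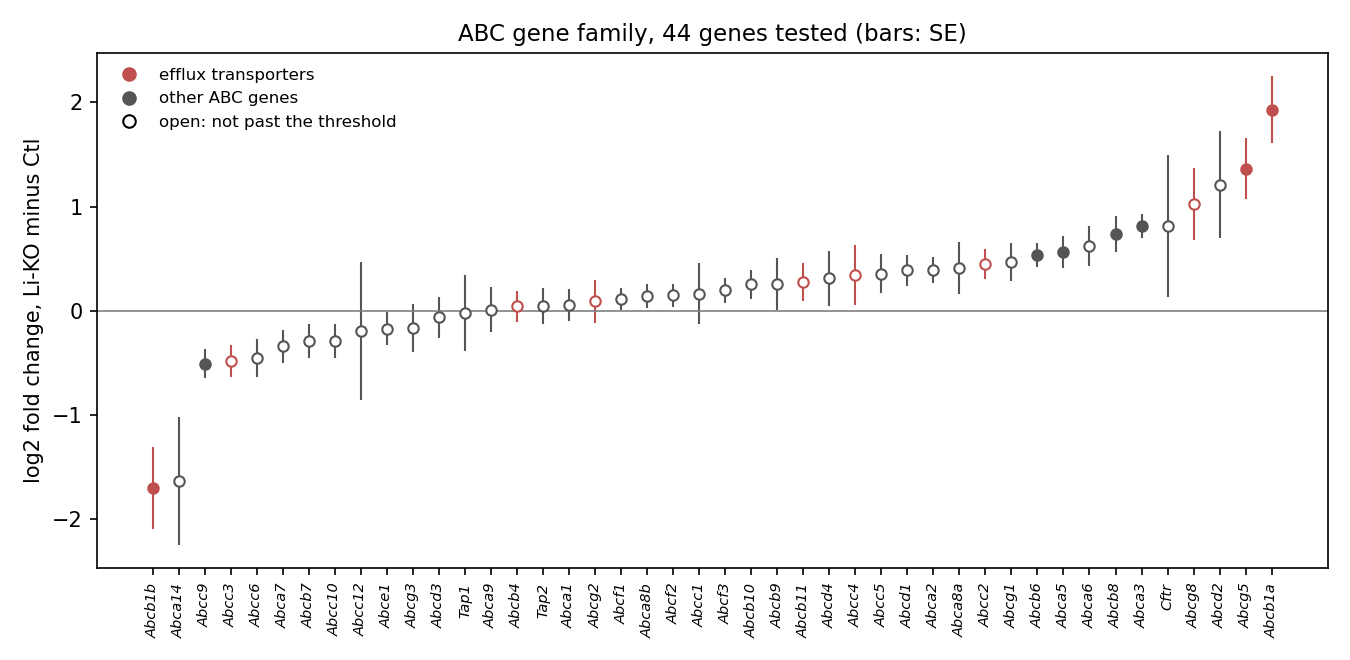
Log2 fold change (y, Li-KO minus Ctl, bars show the SE) of the 44 tested genes of the ABC family (x, sorted by value); red marks the efflux transporters, grey the rest, and filled points passed the threshold. Abcb1a and Abcb1b stand at the ends of the family, at 1.93 and -1.70.

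Among 17 tested nuclear receptors and other regulators known to act on these transporters, 2 rose, beside 6.11% of all genes tested, and the median log2 fold change was 0.04. Nr1h3, the oxysterol receptor LXR alpha, was at 140.3 ± 15.01 CPM in Li-KO and 100.1 ± 3.02 CPM in Ctl (log2 fold change 0.49 ± 0.12, adjusted p = 0.0338). Nr1i2, the xenobiotic receptor PXR, was at 184 ± 20.6 CPM in Li-KO and 121 ± 22.2 CPM in Ctl (log2 fold change 0.61 ± 0.16, adjusted p = 0.0426). Nr1h4, the bile acid receptor FXR that drives Abcb11, was at 185 ± 39.0 CPM in Li-KO and 175 ± 42.3 CPM in Ctl (adjusted p = 0.846). The calls of Nr1h3 and Nr1i2 each held in 1 of the 6 fits without a library, Nr1h3 without Li-KO replicate 2 and Nr1i2 without Ctl replicate 0. The highest adjusted p in the other 5 fits was 0.114 for Nr1h3 and 0.141 for Nr1i2. Nr1i2 also did not pass in limma on log2(FPKM + 0.1) and log2(FPKM + 1) (adjusted p = 0.0546 and 0.0551).

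Transport proteins that work beside these pumps had 2 higher and 4 lower of 13 tested, beside 6.11% higher and 5.90% lower over all genes tested, and a median log2 fold change of -0.08. Atp8b1, the canalicular phospholipid flippase, fell to 88.7 ± 2.58 CPM in Li-KO, against 137 ± 11.8 CPM in Ctl (log2 fold change -0.63 ± 0.11, adjusted p = 0.0137). Its subunit Tmem30a fell to 248 ± 55.0 CPM in Li-KO, against 396 ± 15.3 CPM in Ctl (adjusted p = 0.0359). Atp7b, the copper exporter of the canaliculus, rose to 102 ± 7.49 CPM in Li-KO, against 68.9 ± 5.04 CPM in Ctl (adjusted p = 0.0203). Slco1a4, an uptake carrier of organic anions, rose to 439.6 ± 206 CPM in Li-KO, against 99.4 ± 39.6 CPM in Ctl (log2 fold change 2.15 ± 0.38, adjusted p = 0.0130). The uptake carriers Slc10a2 and Slco1a1 fell, with log2 fold changes of -2.26 ± 0.31 and -2.97 ± 0.41 (adjusted p = 0.00539 and 0.00603). The calls of Slc10a2 and Slco1a1 held in all 6 fits without a library. The other 4 calls each ended without Ctl replicate 2, those of Atp8b1 and Atp7b also without Li-KO replicate 1, and those of Atp7b and Slco1a4 also without Ctl replicate 1. Tmem30a held only without Li-KO replicate 2. The highest adjusted p was 0.0701 for Atp8b1, 0.139 for Tmem30a, 0.0885 for Atp7b and 0.0581 for Slco1a4.

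The genes nearest in pattern to each changed transporter were found by the root mean square difference of log2 CPM over the 6 libraries, each gene centred on its own mean, among 11939 genes with a mean of at least 1 CPM. Nearest to Abcg5 were Tomm5 (a difference of 0.086 log2 units) and Tomm40l (0.174), both of the mitochondrial outer membrane import machinery, and Etnppl (0.181), a phospholyase of phosphoethanolamine. Nearest to Abcb1a were Rdh9 (0.273), Acot2 (0.301) and Gstt2 (0.321). Nearest to Abcb1b were Nap1l3 (0.207), Ccdc171 (0.218) and Exo5 (0.222). All 9 are a description of these 6 libraries.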

How the data were processed

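Liver RNA of 3 Li-KO and 3 Ctl libraries was made into stranded total RNA libraries, per the labels' protocols. The submitters' processing notes name STAR, Cufflinks, Cuffdiff and mm10; no source used here states versions, strand setting or annotation. Raw fragments in the deposited table are estimated counts that the authors did not normalize, per the file headers, and 0 values of the 10 transporters were not whole. FPKM values are deposited beside internally and externally scaled fragments, per the file headers, and which scaling they carry is not stated there. Condition KO was matched to Li-KO as the knockout, and WT, which no title names, was inferred to be the Albumin-Cre Ctl group, the only other one; replicate numbers follow the titles, with 0 columns left without a sample. Genes the table marks as skipped (77, none of them a transporter described here) were left out.

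Estimated counts were rounded, filtered with filterByExpr (minimum count 10, minimum total 15) and scaled by TMM. Groups were compared in edgeR 4.0.16 (quasi-likelihood F test, two-sided), group as the only term, Benjamini-Hochberg adjustment over all 16533 genes and a threshold of 0.05; the procedure was tested on simulated data. Gene IDs were matched to symbols without version number (48051 of 48432). Alternatives used DESeq2 1.42.0, limma 3.58.1, other scalings, no filter, log2(FPKM + 0.1) and log2(FPKM + 1), a replicate block and leaving out each library. R 4.3.3, Python 3.11.15 and Biopython 1.88 were used. Positions and transcripts came from GENCODE M21 (mm10), and promoters from RefSeq (GRCm38.p6).

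The transporters and lists were chosen with earlier results of these data known. Genes named were the 10 transporters, Klf15, up to 6 called genes of each list, and the 3 genes nearest in pattern to each called transporter; 1 result among the regulators is not reported here.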

Additional observations from a re-analysis of the deposited data

How the results depend on the processing

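Over 10 other settings, Abcb1a and Abcg5 kept their calls in all, and Abcb1b in all except limma on log2(FPKM + 1), where its log2 fold change was -0.48 (adjusted p = 0.0522) and that of the summed pair 1.05 (0.0524). DESeq2 called Abcc2 (0.46), Abcc3 (-0.47) and Abcg8 (1.03) as well; Abcg8 also passed with no filter on low counts (1.03, adjusted p = 0.0315). Counts under DESeq2 were 3158 genes in all, 6 of the transporters and 8 other ABC genes, against 1986, 3 and 5; limma on log2(FPKM + 0.1) and log2(FPKM + 1) called 3 and 2 other ABC genes. Leaving out each library in turn gave 432 to 2549 genes, 0 to 3 transporters and 1 to 4 other ABC genes, the lowest counts without Ctl replicate 1. Log2 fold changes over these fits were 1.61 to 2.26 for Abcb1a, -2.03 to -1.38 for Abcb1b, 1.21 to 1.82 for their sum, 1.14 to 1.70 for Abcg5, 0.77 to 1.51 for Abcg8, -0.0842 to 0.16 for Abcb4 and -0.13 to 0.25 for Abcg2. The cause of these differences was not tested; fits without a library have fewer samples.

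Deviations from the group means correlated at 0.018, 0.081 and 0.067 between same-numbered libraries, and at -0.113 to 0.037 between differently numbered ones. With 3 libraries per group, these values cannot tell whether the replicate numbers pair the samples. With the replicate number as a block, 1971 genes and 4 transporters were called, Abcg8 among them (log2 fold change 1.08, adjusted p = 0.0134), while Abca5 was lost (adjusted p = 0.0779).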

Other observations

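Proteins that anchor or deliver canalicular transporters were looked at as a further list of 13 genes, all tested. Of these 4 rose and 0 fell, beside 6.11% higher and 5.90% lower over all genes tested, with a median log2 fold change of -0.06. Ezr, the linker ezrin, was at 19.6 ± 3.77 CPM in Li-KO and 10.5 ± 1.63 CPM in Ctl (log2 fold change 0.90 ± 0.19, adjusted p = 0.0231). Pdzk1, a scaffold with PDZ domains, was at 122 ± 3.12 CPM in Li-KO and 86.9 ± 6.25 CPM in Ctl (adjusted p = 0.0262). Vipas39, which acts in the sorting of apical membrane proteins, was at 31.01 ± 2.97 CPM in Li-KO and 20.8 ± 1.79 CPM in Ctl (adjusted p = 0.0302). Vil1, villin of the microvilli, was close to 0 in both groups, at 0.935 ± 0.328 CPM in Li-KO and 0.138 ± 0.020 CPM in Ctl (adjusted p = 0.0159). Rdx, radixin, the main linker of this kind in hepatocytes, was picked after its values were seen; it had a log2 fold change of -0.38 ± 0.12 and did not pass (adjusted p = 0.0789). Without Ctl replicate 0, 1 or 2 all 4 calls ended, and without Li-KO replicate 1 those of Ezr, Pdzk1 and Vipas39. Pdzk1 also ended without Li-KO replicate 0. The highest adjusted p with 1 library left out was 0.0847 for Ezr, 0.0981 for Pdzk1, 0.112 for Vipas39 and 0.0843 for Vil1. Vil1 also did not pass in limma on log2(FPKM + 1) (adjusted p = 0.0551).

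Markers of red blood cells did not overlap between the groups, as held for 35.2% of all genes tested, and had lower values in Li-KO. Of the 3 markers, 0 passed the test, beside 12.0% of all genes tested (median log2 fold change -0.96). They summed to 246 to 479 CPM in Li-KO and 608 to 673 CPM in Ctl. Abcg2 and Abcb6 are also made in erythroid cells, and the part of blood in their values was not tested.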
